A study of Saccharomyces cerevisiae with 8 samples.

Results

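The heat shock and general stress genes of budding yeast followed here are 32 protein-coding genes taken from the table by their systematic names. Among them are the chaperone genes HSP26, HSP104, HSP82 and SSA1 to SSA4, and the catalase gene CTT1. The small stress genes HSP12, DDR2 and HOR7 and the genes of the transcription factors Msn2 and Msn4 are members too. All 32 were found among the 11844 features of the deposited table, 5925 of which are protein-coding genes, and all 32 passed the filter on low values. The rule that lists them uses no measured value, although the members were chosen with earlier results of these data known.

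The RNA came from 4 groups of 2 biological replicates, 8 libraries in all. They were upf1 cells given 100 µg/ml cycloheximide (upf1 CHX), upf1 cells given the same volume of DMSO (upf1 DMSO), wild-type cells given CHX (WT CHX) and wild-type cells given DMSO (WT DMSO), each for 15 min at mid-log phase in rich medium. Every group was BY4741, MATa, with his3Δ1 leu2Δ0 met15Δ0 ura3Δ0, and the upf1 strain carried kanMX4 at UPF1 besides. Total RNA of every group was digested with Terminator, an exonuclease that degrades uncapped RNA from a 5′ monophosphate end, so for a higher value, more of an RNA, a larger capped share of it and less complete digestion cannot be told apart. Undigested libraries were not analysed here, and the labels name no second strain or clone for either genotype.

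Budding yeast answers heat, oxidants and starvation mainly through a pair of transcriptional systems. Hsf1, which is essential, binds heat shock elements (HSE) and keeps chaperone genes such as SSA1, SSA2, HSP82 and HSP104 expressed in growing cells as well as under heat. Msn2 and Msn4 are zinc-finger factors that protein kinase A keeps out of the nucleus in growing cells; under stress they bind stress response elements (STRE) and raise a broad set of genes for antioxidants, trehalose and glycogen metabolism and small protective proteins. Cycloheximide blocks translation elongation, and Upf1 is the helicase of nonsense-mediated decay, which removes RNAs with early stop codons during translation.

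The libraries held 1310994 to 5689067 reads assigned to the listed features, and the median protein-coding gene had 7 to 101 reads in a library. Protein-coding genes took 71.3% and 72.5% of the reads in upf1 CHX, 56.5% and 58.8% in upf1 DMSO, 67.2% and 71.0% in WT CHX, and 53.1% and 53.5% in WT DMSO. NAM7, the gene that encodes Upf1, stood at 13.5 and 10.1 scaled reads per kb in upf1 CHX, 5.94 and 2.80 in upf1 DMSO, 83.5 and 44.8 in WT CHX, with 14.8 and 15.2 in WT DMSO. Within each treatment both upf1 libraries lay below both WT libraries. The log2 change of NAM7 was -1.46 in DMSO (limma adjusted p = 0.0439). In CHX it was -2.21 and did not pass (limma adjusted p = 0.113). Reads of NAM7 remained in every upf1 library, and where in the gene they lie was not examined. In a bulk culture, a change in every cell and a change in a share of the cells cannot be told apart.

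The letters that Msn2, Msn4 and Hsf1 are known to bind were looked up in the 500 bases before each start codon, as AGGGG or CCCCT for an STRE (both strands) and for an HSE as GAA, TTC and GAA in a row with 2 bases between neighbours, or as TTC, GAA and TTC spaced alike, which is the same on the other strand. STRE and HSE matches that overlap were both counted. Other spacings or variants of the HSE letters were not searched. STRE letters occurred upstream of 25 of the 32 stress genes (78.1%), against 34.1% of all 6000 protein-coding genes with such a window in the R64 genome, and 19 (59.4%) had at least 2 matches, against 8.13%. HSE letters occurred upstream of 6 (18.8%), against 1.48% of all. The 6 were SSA1, SSA2, HSP42, HSP78, HSP104 and YGP1. The stretches printed next are of R64 from RefSeq, 5′ to 3′ on the gene's strand, with STRE matches (5 letters each) and HSE matches (13 letters, or 18 where a pair overlap) in capitals. HSP12, DDR2, HOR7 and PGM2 are shown because they are among the members with the highest changes on CHX in upf1 or WT, and HSP104, HSP42, SSA1 and SSA2 because they carry HSE letters and stood lowest or near it. Chosen by change and letters together, these stretches do not stand for all 32 members. Not shown are HSP82, the lowest in WT, which has no HSE letters, and YGP1, which has them and rose in both genotypes.
HSP12 (chrVI:106816-107075, plus strand): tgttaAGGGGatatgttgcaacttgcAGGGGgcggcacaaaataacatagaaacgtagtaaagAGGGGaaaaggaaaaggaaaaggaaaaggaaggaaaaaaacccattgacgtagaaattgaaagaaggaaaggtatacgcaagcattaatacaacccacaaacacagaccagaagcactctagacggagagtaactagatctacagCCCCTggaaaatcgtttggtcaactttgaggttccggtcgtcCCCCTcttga
DDR2 (chrXV:231915-232015, minus strand): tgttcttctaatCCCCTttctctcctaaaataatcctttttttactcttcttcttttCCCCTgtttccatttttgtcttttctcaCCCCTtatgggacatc
HOR7 (chrXIII:774372-774511, plus strand): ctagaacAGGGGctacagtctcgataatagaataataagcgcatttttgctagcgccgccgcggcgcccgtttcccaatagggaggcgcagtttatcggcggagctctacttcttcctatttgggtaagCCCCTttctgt
PGM2 (chrXIII:477807-478026, minus strand): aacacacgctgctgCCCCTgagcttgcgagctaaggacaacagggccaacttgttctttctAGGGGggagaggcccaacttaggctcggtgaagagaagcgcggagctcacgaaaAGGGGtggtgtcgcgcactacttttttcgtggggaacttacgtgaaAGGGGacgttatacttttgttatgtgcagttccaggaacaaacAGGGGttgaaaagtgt
HSP104 (chrXII:88313-88463, plus strand): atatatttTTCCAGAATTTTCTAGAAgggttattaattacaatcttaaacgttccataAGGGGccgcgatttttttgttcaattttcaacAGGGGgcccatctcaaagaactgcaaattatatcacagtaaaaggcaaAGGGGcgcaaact
HSP42 (chrIV:806371-806450, plus strand): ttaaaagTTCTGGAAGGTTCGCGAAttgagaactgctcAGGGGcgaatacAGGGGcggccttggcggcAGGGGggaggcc
SSA1 (chrI:141581-141801, minus strand): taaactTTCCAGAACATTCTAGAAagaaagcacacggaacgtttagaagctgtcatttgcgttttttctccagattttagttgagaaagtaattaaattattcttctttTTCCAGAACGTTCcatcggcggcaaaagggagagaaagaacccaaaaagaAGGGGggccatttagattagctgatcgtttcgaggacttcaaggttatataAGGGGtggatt
SSA2 (chrXII:97686-97735, minus strand): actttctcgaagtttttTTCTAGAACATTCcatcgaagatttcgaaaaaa
The HSP12 stretch holds 5 STRE matches and that of PGM2 5 as well, with none of the HSE letters, while the SSA2 stretch holds 1 HSE match and no STRE match. A match of letters is a description of the sequence and was not tested as a binding site.

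A level is the authors' density per nucleotide times 1000, called scaled reads per kb. A change is a log2 difference ± SE after adding 2 scaled reads per kb to each level, so changes of genes with few reads come out too small. A gene is said to have risen or fallen where its limma adjusted p (Benjamini-Hochberg, over all 10392 features tested, two-sided) was under 0.05. Per kb and averaged over the 8 libraries, the members ran from SSA2 at 2145, TRX2 at 1411 and SOD2 at 811 down to HSP78 at 3.17 and GAC1 at 2.23. HSP12 rested on 42 reads in upf1 CHX, 5 in upf1 DMSO, 19 in WT CHX and only 2 in WT DMSO.

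The first question was whether blocking elongation in WT moved the stress genes. Of the 32 members 23 rose on CHX and 0 fell, while 68.5% of the 5517 protein-coding genes tested and 69.8% of all features tested rose, so the count lies near the background. The members' median change was 1.55, against 1.23 for protein-coding genes. By limma 0 members fell. At an unadjusted p under 0.05 25 members differed, all of them upward, beside 4032 of the 5517 protein-coding genes in either direction. Voom called 26 higher and 0 lower, against 72.1% of protein-coding genes higher by voom. By role, the medians were 2.29 for the 6 membrane, wall and small stress proteins and 1.75 for the 8 oxidant and carbonyl defence genes, both above the protein-coding median. They were 0.51 for the 5 Hsp70 and Hsp90 genes and 0.15 for the 4 disaggregases and small heat shock proteins, both below it. In 27 of the 32 both CHX libraries lay above both DMSO libraries, against 86.0% of protein-coding genes. Without WT CHX replicate 1 the count of rises was 15, as GRE3, GRX1, HSP12, HSP26, MSN4, PGM2, SSA1 and TRX2 lost their calls. GRE3, GRX1, PGM2 and SSA1 also lost theirs without WT DMSO replicate 1, SSA1 without WT DMSO replicate 2, and GRX1 without WT CHX replicate 2. With 2 biological replicates a group, a p-value measures the spread between these few cultures.

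In upf1 cells 25 of the 32 members rose on CHX and 0 fell, against 74.0% of protein-coding genes and 64.1% of all features higher. The median was 1.52, against 1.25 for protein-coding genes. At an unadjusted p under 0.05 the same number, 25, differed, beside 4362 of the 5517 protein-coding genes. Voom called 28 higher and 0 lower, against 82.2% of protein-coding genes higher by voom. Both CHX libraries lay above both DMSO libraries in 31 of the 32, against 92.6% of protein-coding genes. Members that rose in both genotypes numbered 21, which is 84.0% of those in upf1 and 91.3% of those in WT. That overlap was not counted over protein-coding genes, of which 74.0% rose in upf1 and 68.5% in WT. It is therefore not read as a trait of the members. MSN2, SSA3, STF2 and GAC1 passed in upf1 alone and SSA1 and ALD3 in WT alone, while HSP82, SSA2, HSP104, HSP42 and HSP78 passed in neither; no member passed the test of the difference between genotypes. Without upf1 CHX replicate 1 the count in upf1 was 12. The calls lost there were GAC1, GRE3, GRX1, HSP12, HSP26, HSP30, HSP31, MSN2, MSN4, SSA3, SSA4, STF2 and TRX2. Without upf1 DMSO replicate 2 GAC1, GRX1, HSP12, HSP26, HSP31, MSN2, SSA3 and TRX2 lost theirs, and HSP31, MSN2, SSA3 and TRX2 did so without upf1 CHX replicate 2 as well. GAC1 also lost its call without upf1 DMSO replicate 1 and without either WT DMSO library. The protein-coding share of reads and the median change of all mRNAs moved upward with CHX in both genotypes, and their part in the members' rises was not tested beyond the scaling that follows.

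**Figure D1:**
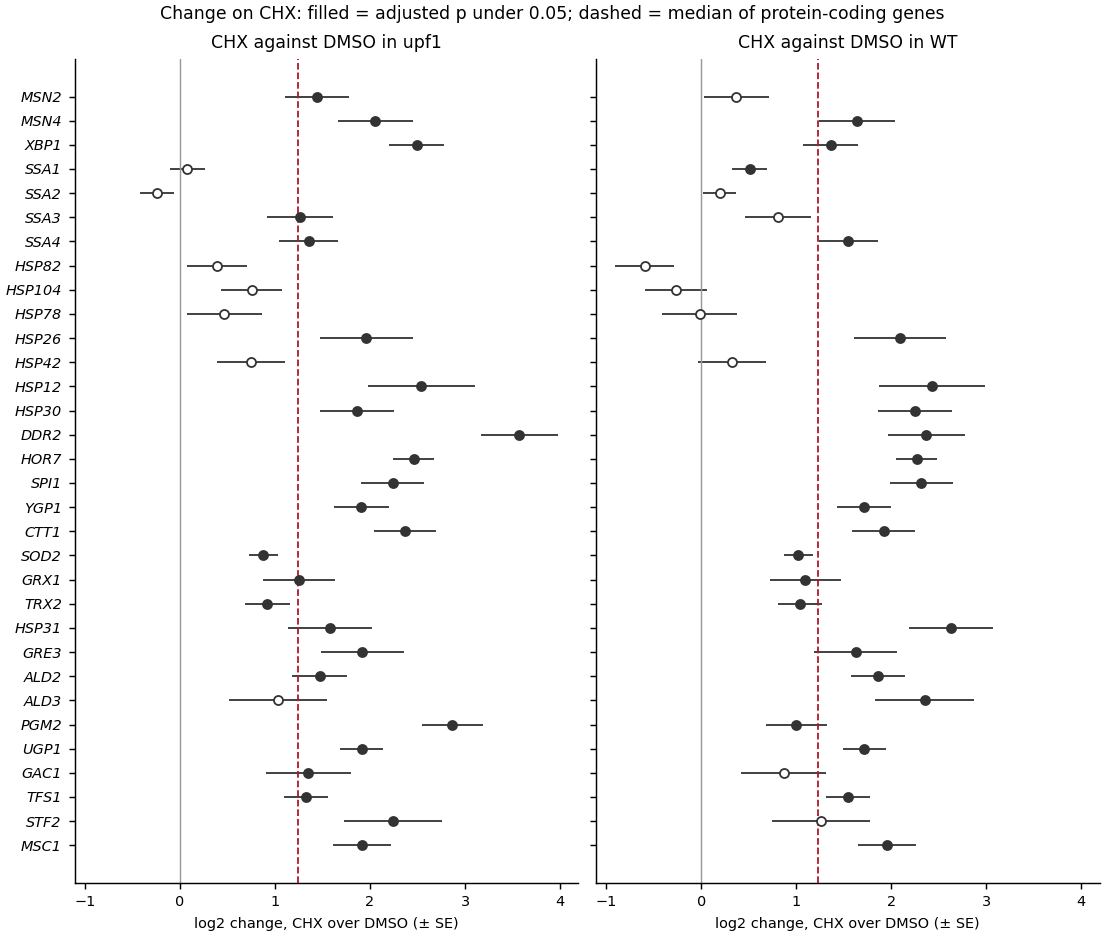
Log2 change (x axis, CHX over DMSO, ± SE, 2 libraries a group) of each of the 32 stress genes in upf1 (left) and WT (right), with filled points where the adjusted p is under 0.05. The dashed line is the median of protein-coding genes, at 1.25 in upf1 and 1.23 in WT; SSA1, SSA2, HSP82, HSP104, HSP78 and HSP42 lie left of it in both panels.

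Because nearly all mRNAs had a positive change on the deposited scale, the libraries were also rescaled to have equal medians over protein-coding genes. This lowered every change by 1.37 in upf1 and by 1.31 in WT. On that scale 3 members were higher on CHX in upf1 and 2 lower, against 1.52% and 1.65% of protein-coding genes, and in WT 1 was higher and 4 lower, against 5.47% and 3.92%. The 3 higher ones in upf1 were DDR2 (2.2 ± 0.428, limma adjusted p = 0.0397), PGM2 (1.50 ± 0.279, adjusted p = 0.0334) and HOR7 (1.09 ± 0.170, adjusted p = 0.0195). HOR7 was the 1 higher member in WT (0.96 ± 0.170, adjusted p = 0.0157). The lower ones were SSA1 (-1.29) and SSA2 (-1.61) in upf1, both at an adjusted p of 0.0159. In WT they were HSP82 (-1.91, adjusted p = 0.0105), HSP104 (-1.58, adjusted p = 0.0138), SSA2 (-1.12, adjusted p = 0.0133) and SSA1 (-0.80, adjusted p = 0.0292). The members' median was 0.15 in upf1 and 0.23 in WT on that scale, against -0.12 and -0.08 for protein-coding genes. The other 22 rises in each genotype no longer passed as higher there.

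Positions are of coding regions in R64, from RefSeq. Of the regulators, MSN4 (YKL062W, chrXI:323228-325120), the partner that is itself known to be stress-inducible, had 42.2 and 23.5 scaled reads per kb in upf1 CHX, 7.84 and 4.62 in upf1 DMSO, 22.5 and 13.3 in WT CHX, and 3.78 and 4.71 in WT DMSO. Both CHX libraries were above both DMSO libraries in either genotype, and MSN4 rose by 2.06 ± 0.397 in upf1 (adjusted p = 0.00607) and 1.64 ± 0.397 in WT (adjusted p = 0.00842) by limma. MSN2 (YMR037C, chrXIII:344403-346517), which is known to be expressed more steadily, had 20.6 and 22.3 in upf1 CHX, 7.68 and 5.70 in upf1 DMSO, 14.5 and 10.4 in WT CHX, and 6.58 and 12.3 in WT DMSO. The WT groups overlapped. Its rise in upf1 was 1.44 ± 0.340 (limma adjusted p = 0.0107), and in WT the change was 0.37 ± 0.340, short of the threshold (adjusted p = 0.34). XBP1 (YIL101C, chrIX:175307-177250), a transcriptional repressor induced by stress, had 32.01 and 24.8 in upf1 CHX, 3.32 and 3.43 in upf1 DMSO, 12.4 and 14.9 in WT CHX, and 4.81 and 3.42 in WT DMSO. It rose by 2.49 ± 0.290 in upf1 and 1.36 ± 0.290 in WT.

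Among the cytosolic Hsp70 genes, SSA2 (YLL024C, chrXII:95566-97485) and SSA1 (YAL005C, chrI:139503-141431) are the copies known to be expressed in growing cells, and SSA3 (YBL075C, chrII:84499-86448) and SSA4 (YER103W, chrV:364589-366517) those induced by heat. SSA2 had 2481 and 2303 scaled reads per kb in upf1 CHX, 2630 and 3041 in upf1 DMSO, 2044 and 1549 in WT CHX, and 1493 and 1619 in WT DMSO. It was thus lower in both CHX libraries than in both DMSO libraries of upf1, at -0.24 ± 0.174 (limma adjusted p = 0.236), and overlapped between treatments in WT, at 0.19 ± 0.174 (adjusted p = 0.328). SSA1 had 569 and 528 in upf1 CHX, 518 and 523 in upf1 DMSO, 435 and 327 in WT CHX, and 263 and 267 in WT DMSO. Its change was 0.08 ± 0.185 in upf1 (limma adjusted p = 0.722), and in WT it rose by 0.51 ± 0.185 (adjusted p = 0.0397), under the protein-coding median. That call ended without either WT DMSO library, WT CHX replicate 1 or either upf1 CHX library. The coding sequences of SSA1 and SSA2 are identical at 96.8% of 1920 aligned bases, with a run of 383 identical bases, and how reads that map to both were treated is not given in the sources used here, so the split between them is uncertain.

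The inducible Hsp70 genes started from few reads. SSA4 had 18.0 and 12.8 scaled reads per kb in upf1 CHX, 4.77 and 4.69 in upf1 DMSO, 8.32 and 6.81 in WT CHX, and 0.920 and 1.64 in WT DMSO. It rose by 1.35 ± 0.315 in upf1 and 1.55 ± 0.315 in WT (limma adjusted p = 0.0102 and 0.00425), and its 4 reads in WT DMSO, against 35 in WT CHX, put the ratio of reads in WT at 6.24 with an exact 95% interval of 2.23 to 24.2 that covers counting error only. SSA3 had 15.1 and 13.7 in upf1 CHX, 5.23 and 4.48 in upf1 DMSO, 7.11 and 3.49 in WT CHX, and 1.65 and 2.45 in WT DMSO. SSA3 rose by 1.26 ± 0.347 in upf1 (limma adjusted p = 0.0172), while its change of 0.81 ± 0.347 in WT missed the threshold (adjusted p = 0.0663). The coding sequences of this pair are identical at 77.8% of aligned bases.

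HSP82 (YPL240C, chrXVI:96496-98625), the heat-inducible Hsp90 gene, had the lowest change of a member on CHX in WT. It had 48.1 and 53.9 scaled reads per kb in upf1 CHX, 42.9 and 34.7 in upf1 DMSO, 10.6 and 12.4 in WT CHX, and 13.5 and 24.8 in WT DMSO. Both CHX libraries were above both DMSO libraries in upf1 and below them in WT, but neither change passed, at 0.39 ± 0.315 in upf1 (limma adjusted p = 0.291) and -0.60 ± 0.315 in WT (adjusted p = 0.12). Without WT DMSO replicate 1 the WT change was -0.99 and passed (adjusted p = 0.0279). HSC82, its constitutive copy, is identical at 92.4% of aligned coding bases, so that the split of reads between this pair is uncertain too. HSC82 had 477 and 510 in upf1 CHX, 467 and 417 in upf1 DMSO, 278 and 202 in WT CHX, and 217 and 277 in WT DMSO. The change of HSC82 on CHX was 0.16 ± 0.219 in upf1 and -0.05 ± 0.219 in WT, neither of which passed.

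HSP104 (YLL026W, chrXII:88623-91349), the cytosolic disaggregase, had 21.5 and 29.6 scaled reads per kb in upf1 CHX, 17.3 and 11.5 in upf1 DMSO, 10.5 and 7.95 in WT CHX, and 9.71 and 13.4 in WT DMSO. Its change was 0.75 ± 0.324 in upf1 (limma adjusted p = 0.0713) and -0.26 ± 0.324 in WT (adjusted p = 0.467), where the groups overlapped. HSP78 (YDR258C), its mitochondrial relative, and HSP42 (YDR171W), a small heat shock protein that gathers misfolded proteins, stood at 0.46 and 0.75 in upf1 and at -0.02 and 0.32 in WT, none of which passed the test. HSP26 (YBR072W, chrII:382030-382674), the other cytosolic small heat shock protein, had 42.6 and 33.2 in upf1 CHX, 14.1 and 4.44 in upf1 DMSO, 36.6 and 27.6 in WT CHX, and 8.71 and 3.87 in WT DMSO. HSP26 rose by 1.96 ± 0.487 in upf1 (limma adjusted p = 0.0125) and 2.09 ± 0.487 in WT (adjusted p = 0.00722).

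All 6 members of the membrane, wall and small stress protein group rose in both genotypes, with a median of 2.35 in upf1 and 2.29 in WT, where 74.0% and 68.5% of protein-coding genes rose. With median scaling 2 of the 6 were higher in upf1 and 1 in WT, against 1.52% and 5.47% of protein-coding genes. HOR7 (YMR251W-A, chrXIII:774752-774931), a short gene induced by osmotic stress, had 1182 and 1308 scaled reads per kb in upf1 CHX, 268 and 188 in upf1 DMSO, 890 and 725 in WT CHX, and 169 and 161 in WT DMSO. It rose by 2.46 ± 0.216 in upf1 (limma adjusted p = 0.00107) and 2.27 ± 0.216 in WT (adjusted p = 0.000455). DDR2 (YOL052C-A, chrXV:231570-231755), its paralogue, had 633 and 400 in upf1 CHX, 50.4 and 32.6 in upf1 DMSO, 345 and 435 in WT CHX, and 107 and 50.2 in WT DMSO. It rose by 3.57 ± 0.404 in upf1 (limma adjusted p = 0.00187), the largest change of a member in that comparison, and by 2.37 ± 0.404 in WT (adjusted p = 0.00223). The stretch of DDR2 printed above holds 3 STRE matches and that of HOR7 holds 2.

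HSP12 (YFL014W, chrVI:107256-107585), a small membrane-binding stress protein, had 27.3 and 32.9 scaled reads per kb in upf1 CHX, 6.02 and 1.77 in upf1 DMSO, 20.3 and 12.3 in WT CHX, and 3.48 and 0 in WT DMSO. It rose by 2.54 ± 0.563 in upf1 (limma adjusted p = 0.0088) and 2.43 ± 0.563 in WT (adjusted p = 0.00708). As WT DMSO held 2 reads of the gene, its ratio of reads in WT was 6.77 with an exact 95% interval of 1.63 to 59.96. SPI1 (YER150W, chrV:468370-468816), a stress-induced wall protein, had 141 and 98.9 in upf1 CHX, 29.2 and 18.8 in upf1 DMSO, 125 and 82.3 in WT CHX, and 21.5 and 16.4 in WT DMSO. The rises of SPI1 were 2.24 ± 0.333 in upf1 and 2.32 ± 0.333 in WT. HSP30 (YCR021C), a membrane regulator of the proton pump, and YGP1 (YNL160W), a secreted glycoprotein of starved cells, rose by 1.86 and 1.91 in upf1 and by 2.25 and 1.71 in WT.

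**Figure D2:**
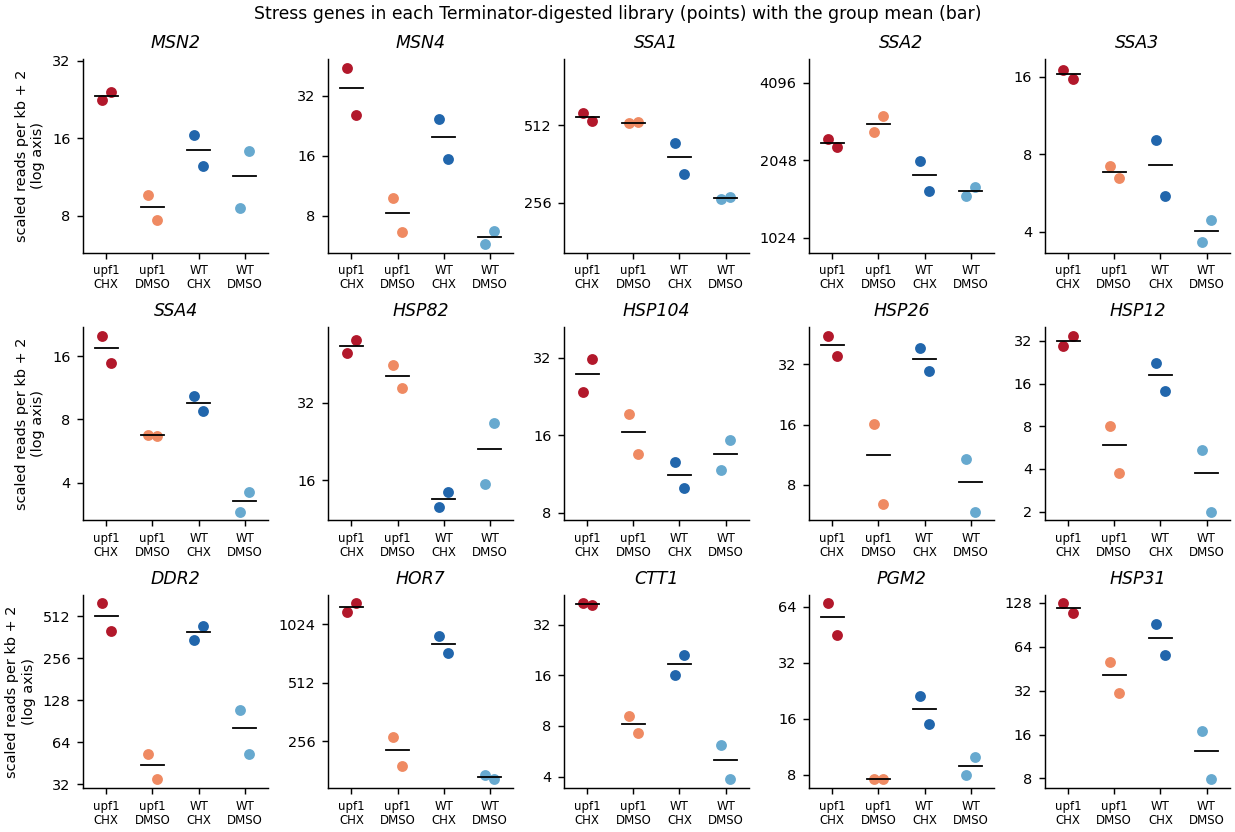
Scaled reads per kb plus 2 (y axis, log scale) of 15 stress genes in each library (points), with the mean of the 2 libraries of a group as a bar. SSA1, SSA2 and HSP82 stand higher in both upf1 groups than in WT DMSO, while DDR2, HOR7, HSP26 and HSP12 split by CHX in both genotypes.

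Oxidant and carbonyl defence genes rose on CHX in 7 of 8 cases in upf1 and in 8 of 8 in WT, with medians of 1.36 and 1.75, beside 74.0% and 68.5% of protein-coding genes. With median scaling 0 of the 8 were higher in either genotype, against 1.52% of protein-coding genes in upf1 and 5.47% in WT. CTT1 (YGR088W, chrVII:654634-656322), the cytosolic catalase, had 40.8 and 40.0 scaled reads per kb in upf1 CHX, 7.21 and 5.31 in upf1 DMSO, 14.2 and 19.1 in WT CHX, and 4.17 and 1.86 in WT DMSO. It rose by 2.37 ± 0.330 in upf1 (limma adjusted p = 0.00291) and 1.92 ± 0.330 in WT (adjusted p = 0.00229). HSP31 (YDR533C, chrIV:1501447-1502160), which detoxifies methylglyoxal, had 125 and 108 in upf1 CHX, 48.7 and 28.7 in upf1 DMSO, 89.9 and 53.7 in WT CHX, and 14.9 and 5.89 in WT DMSO. It rose by 1.58 ± 0.439 in upf1 and by 2.63 ± 0.439 in WT, the largest change of a member there. A pair of strongly read antioxidant genes stood below the protein-coding median: the mitochondrial superoxide dismutase gene SOD2 (YHR008C) rose by 0.87 in upf1 and 1.02 in WT, and the thioredoxin gene TRX2 (YGR209C) by 0.92 and 1.04. GRX1 (YCL035C, chrIII:60841-61173), a glutaredoxin, rose by 1.25 and 1.10, and GRE3 (YHR104W), an aldose reductase, by 1.92 and 1.63.

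ALD3 (YMR169C, chrXIII:599352-600872) and ALD2 (YMR170C) are neighbouring aldehyde dehydrogenase genes on chromosome XIII, identical at 91.8% of aligned coding bases, so that the split of reads between them is uncertain. ALD3 had 31.8 and 21.8 scaled reads per kb in upf1 CHX, 16.3 and 8.55 in upf1 DMSO, 14.9 and 15.5 in WT CHX, and 3.67 and 0 in WT DMSO. In upf1 the change was 1.03 ± 0.520 and missed the threshold (limma adjusted p = 0.11), and it rose by 2.35 ± 0.520 in WT (adjusted p = 0.00587). ALD2 rose in both, by 1.47 and 1.86.

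In the remaining group, PGM2 (YMR105C, chrXIII:475897-477606), the phosphoglucomutase that feeds UDP-glucose synthesis, had 64.9 and 43.4 scaled reads per kb in upf1 CHX, 5.56 and 5.55 in upf1 DMSO, 19.2 and 12.9 in WT CHX, and 5.94 and 7.93 in WT DMSO. It rose by 2.87 ± 0.320 in upf1 (limma adjusted p = 0.00178) and 1.00 ± 0.320 in WT (adjusted p = 0.0246). UGP1 (YKL035W), which makes UDP-glucose, rose by 1.91 and 1.72, TFS1 (YLR178C), an inhibitor of carboxypeptidase Y, by 1.32 and 1.54, and MSC1 (YML128C, chrXIII:15135-16676) by 1.92 and 1.96. STF2 (YGR008C), known as a factor that stabilizes inhibited ATP synthase, rose by 2.24 in upf1 and stood at 1.26 in WT (adjusted p = 0.058). GAC1 (YOR178C), a regulatory subunit of the phosphatase that acts on glycogen synthase, rose by 1.35 in upf1 and stood at 0.87 in WT (adjusted p = 0.114), where 18 reads in WT CHX against 3 in WT DMSO gave a ratio of 4.28 (exact 95% interval 1.25 to 22.7).

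Set beside the upstream letters, the 6 members with HSE letters had changes on CHX from -0.24 to 1.91 in upf1, with a median of 0.61, and from -0.26 to 1.71 in WT, with a median of 0.26. YGP1 gave the upper end in both, and the other 5 lay between -0.24 and 0.75 in upf1 and between -0.26 and 0.51 in WT. The 26 members without these letters had medians of 1.89 in upf1 and 1.63 in WT. They include HSP82, named above among the genes that Hsf1 keeps expressed. Members without the letters searched are therefore not a group free of Hsf1 control. Of the 20 with STRE letters and no HSE letters, 18 rose in upf1 and 18 in WT, with medians of 1.92 and 1.67. Of the 15 among them with at least 2 STRE matches, 13 rose in upf1 and 13 in WT, with medians of 2.24 and 1.92. GRX1, HSP31, TRX2, SOD2 and GRE3, with 1 STRE match and no HSE letters, rose in both genotypes. Of protein-coding genes 74.0% rose in upf1 and 68.5% in WT. HSP82 is an exception among the 15, with 2 STRE matches, no match to the HSE letters searched and the lowest change in WT. SSA1, HSP42, HSP78 and HSP104 hold at least 2 STRE matches besides their HSE letters, and of these only SSA1 rose, in WT. HSP30, ALD2, MSN4, MSN2, SSA3 and GAC1 held neither motif in the window. Of these 6 members, 6 rose in upf1 and 3 in WT, with medians of 1.45 and 1.25. Changes of other genes grouped by these letters were not analysed here. These counts are a description of 32 chosen genes.

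**Figure D3:**
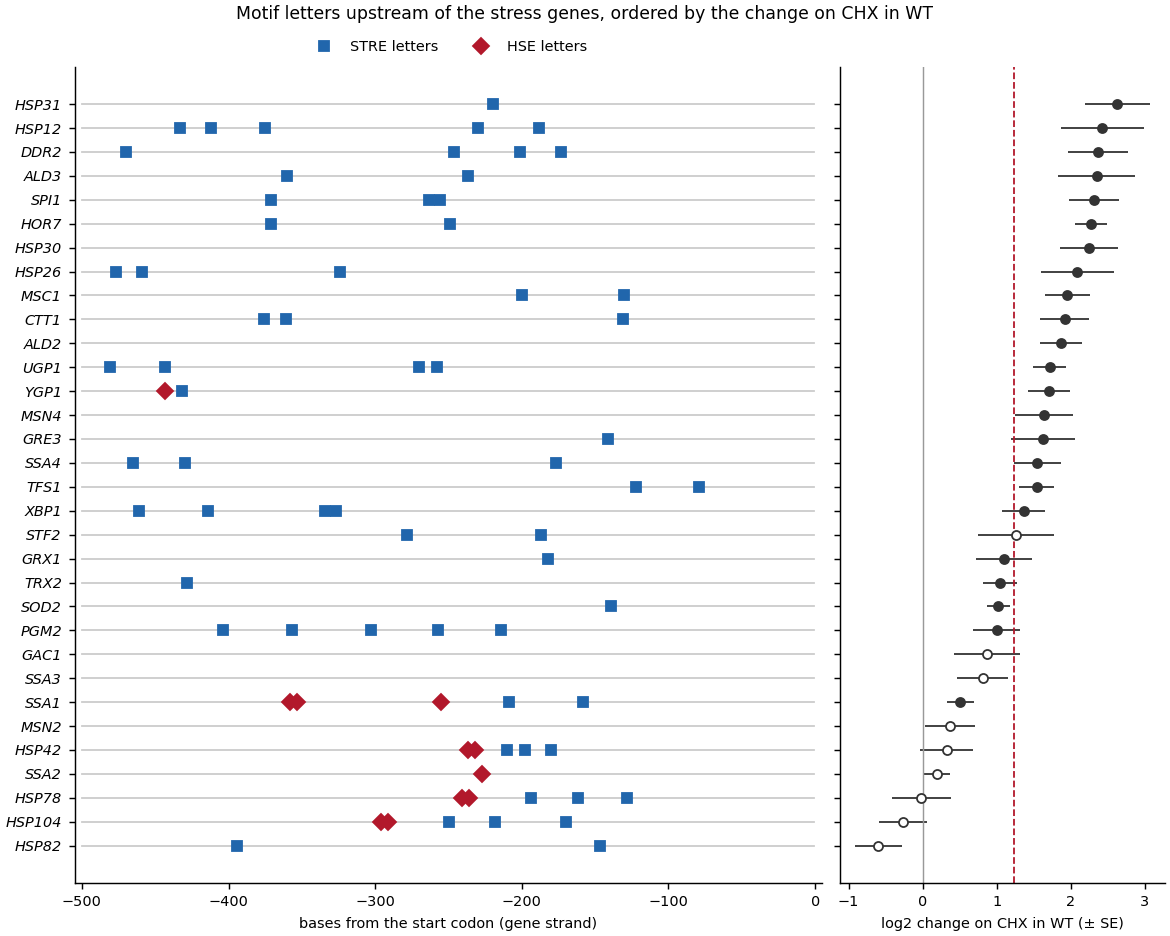
Positions of STRE and HSE letters in the 500 bases before the start codon of each stress gene (left panel, x axis in bases from the start codon), with genes ordered by their log2 change on CHX in WT (right panel, ± SE, filled where the adjusted p is under 0.05, dashed line at the protein-coding median of 1.23). HSE letters lie upstream of 5 of the 7 genes at the bottom and of YGP1.

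Lists of other genes of these pathways were read beside the members, against the same 74.0% of protein-coding genes higher in upf1 and 68.5% in WT. With median scaling 1.52% of protein-coding genes were higher and 1.65% lower in upf1, and 5.47% and 3.92% in WT. Of 47 other Msn2/4 and general stress genes tested, 37 rose on CHX in upf1 and 36 in WT, with medians of 1.45 and 1.34, and with median scaling 5 were higher and 2 lower in each genotype. NCE103, the carbonic anhydrase, rose by 3.84 ± 0.222 in upf1 and 3.57 ± 0.222 in WT, AIM17 by 3.91 and 3.52, and RTC3 by 3.01 and 2.84. SOL4, a phosphogluconolactonase homologue, rose by 3.31 in upf1, and YPC1, a ceramidase, by 2.47 in WT. Other chaperones and cochaperones had lower medians: 13 of 30 rose in upf1 and 14 in WT, with medians of 0.71 and 0.76. Those of smallest p were the ribosome-associated Hsp70 genes SSB1 and SSB2, at 0.86 and 0.87 in upf1 and 1.22 and 1.25 in WT, their partner ZUO1, at 1.00 and 1.28, and the wall protein gene HSP150, at 1.27 and 1.28. With median scaling 0 of the 30 were higher and 6 lower in upf1, and 0 were higher and 10 lower in WT. HSF1, the gene of the heat shock factor, rose by 1.53 ± 0.355 in upf1 and 1.36 ± 0.355 in WT. Among stress signalling regulators 29 of 31 rose in upf1 and 24 in WT, with medians of 1.36 and 1.07, and with median scaling 0 were higher and 1 lower in each. They include YAK1, a kinase that opposes protein kinase A (2.67 and 1.99), and BCY1, the regulatory subunit of protein kinase A (1.62 and 1.90). The phosphodiesterase gene PDE2 rose by 1.49 in upf1 and 1.61 in WT, WHI2 by 2.36 in upf1 and PDE1 by 1.94 in WT.

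What loss of UPF1 alone did to the stress genes was asked in DMSO. There 7 of the 32 members rose in upf1 and 0 fell, against 13.2% of protein-coding genes and 14.7% of all features higher. The members' median was 0.37, under the 0.51 of protein-coding genes. At an unadjusted p under 0.05 10 members differed, beside 1714 of the 5517 protein-coding genes. Voom called 8 higher and 0 lower, against 14.4% of protein-coding genes higher by voom. In 15 of the 32 both upf1 libraries were above both WT libraries, against 56.5% of protein-coding genes. The 7 were ALD3, HSP31, MSC1, GRX1, SSA1, SSA2 and TFS1. Every one of these calls ended with median scaling, which took 0.63 off, with quantile normalization, and without upf1 DMSO replicate 1. Leaving out any of the other libraries left 1 to 3 members higher.

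ALD3 was higher by 2.05 ± 0.520 in upf1 DMSO than in WT DMSO (limma adjusted p = 0.0397), where 1 WT library held no read of it, and HSP31 by 1.77 ± 0.439 (adjusted p = 0.0369). MSC1 had 46.5 and 45.9 scaled reads per kb in upf1 CHX, 14.1 and 8.07 in upf1 DMSO, 14.7 and 14.7 in WT CHX, and 1.98 and 2.64 in WT DMSO. Its upf1 libraries were above the WT libraries in either treatment, and in DMSO that was a rise of 1.57 ± 0.306 (limma adjusted p = 0.0179). GRX1 had 151 and 105 in upf1 CHX, 60.5 and 43.9 in upf1 DMSO, 48.7 and 34.2 in WT CHX, and 12.6 and 25.5 in WT DMSO. Within each treatment both upf1 libraries were above both WT libraries, and in DMSO GRX1 rose by 1.42 ± 0.378 (limma adjusted p = 0.0449). SSA1 and SSA2 rose by 0.97 ± 0.185 and 0.86 ± 0.174 (limma adjusted p = 0.0169 and 0.0203), each with both upf1 libraries above both WT libraries. TFS1 rose by 0.87 ± 0.233 (adjusted p = 0.0454). HSP82, at 0.99 ± 0.315, and SSA4, at 1.05 ± 0.315, missed the threshold (adjusted p = 0.0741 and 0.0636). DDR2, in contrast, had its upf1 DMSO values of 50.4 and 32.6 beside WT DMSO values of 107 and 50.2, which overlapped at -0.83 ± 0.404 (adjusted p = 0.206).

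Other chaperones and cochaperones had 6 of 30 higher and 0 lower in upf1 DMSO against WT DMSO, with a median of 0.63, where 13.2% of protein-coding genes rose. With median scaling 0 of the 30 passed in either direction, where 109 of the 5517 protein-coding genes were higher and 55 lower. The Hsp90 cochaperone genes CPR6, HCH1 and AHA1 rose by 1.09 ± 0.194, 1.33 ± 0.281 and 1.21 ± 0.302, and SSE1, an Hsp110, by 0.77 ± 0.149. HSC82 rose as well, by 0.84 ± 0.219 (limma adjusted p = 0.0419). Of 47 other Msn2/4 and general stress genes, 7 rose and 1 fell, with a median of 0.46; with median scaling 1 was higher and 2 lower. The peroxidase genes PRX1 and TSA2 rose by 1.91 and 1.66 and RTN2 by 1.91, calls that ended with median scaling (limma adjusted p = 0.0586, 0.124 and 0.0858). GPX1, another peroxidase gene, rose as well, with 7.31 ± 0.446 scaled reads per kb in upf1 DMSO (SD, n = 2) and no read in either WT DMSO library. Its size of change is set by the pseudocount and is not given. Of 31 signalling regulators 2 rose, PDE1 by 1.41 and HOT1 by 1.33, and 0 did with median scaling. HSF1 itself stood at 0.40 ± 0.355 and did not pass (adjusted p = 0.469).

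**Figure D4:**
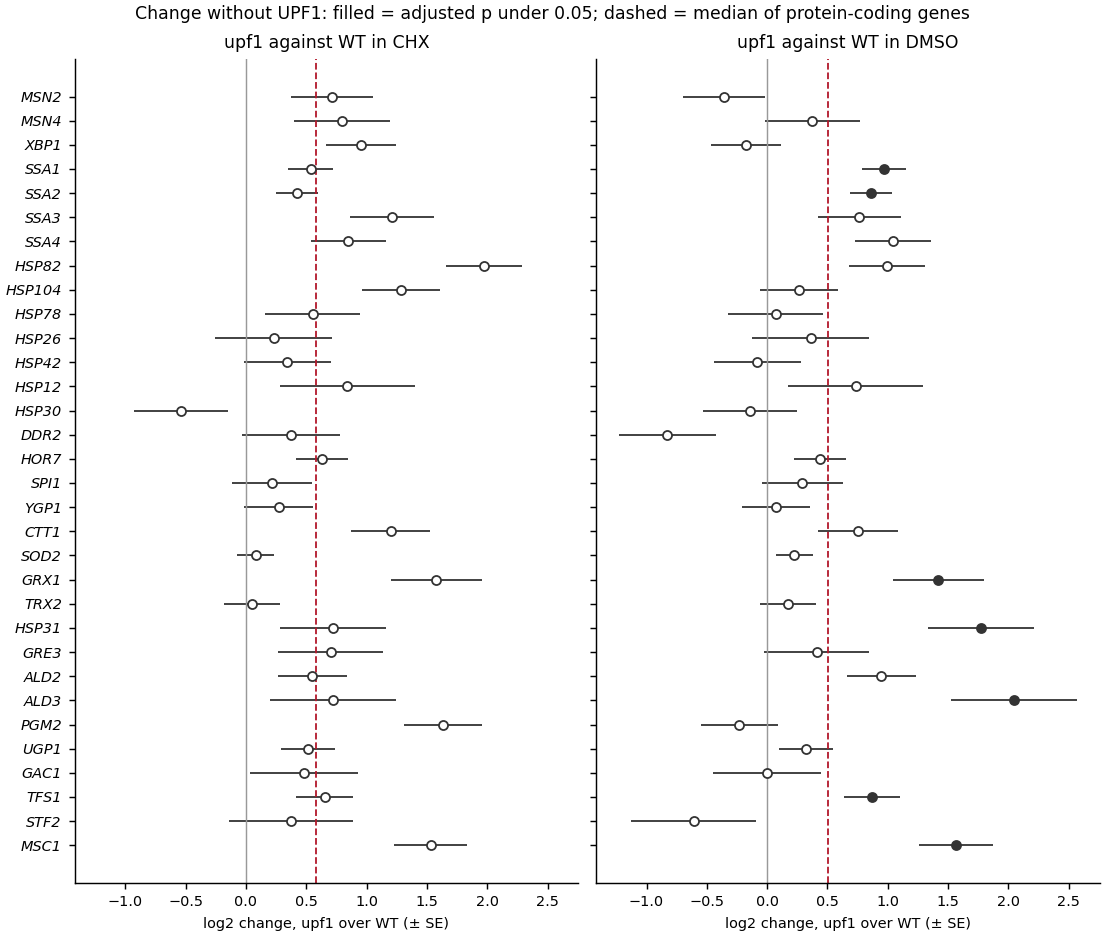
Log2 change (x axis, upf1 over WT, ± SE, 2 libraries a group) of the 32 stress genes in CHX (left) and in DMSO (right), with filled points where the adjusted p is under 0.05. The dashed line is the median of protein-coding genes, at 0.58 in CHX and 0.51 in DMSO; HSP82 and PGM2 lie farthest right in CHX without passing.

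Under CHX 0 of the 32 members passed by limma between upf1 and WT, and 0.0544% of protein-coding genes and 0.0481% of all features were higher. At an unadjusted p under 0.05 13 members differed, beside 1719 of the 5517 protein-coding genes. Voom called 8 members higher and 0 lower, against 17.9% of protein-coding genes higher by voom. The members' median was 0.64, against 0.58 for protein-coding genes. In 24 of the 32 both upf1 libraries were above both WT libraries, against 66.6% of protein-coding genes. HSP82 differed most, at 1.97 ± 0.315 (limma adjusted p = 0.113), with upf1 CHX values of 48.1 and 53.9, against 10.6 and 12.4 in WT CHX. PGM2 followed at 1.63 ± 0.320, GRX1 at 1.58 ± 0.378, MSC1 at 1.53 ± 0.306 and HSP104 at 1.29 ± 0.324 (limma adjusted p from 0.113 to 0.131). Voom called those 5 and SSA3, CTT1 and XBP1. With 8 scaled reads per kb added in place of 2, limma called HSP82, PGM2 and MSC1. The share of protein-coding genes called in that setting was not counted.

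Whether the response to CHX differed with genotype was tested as the interaction. It passed for 0 of the 32 members and for 0.0% of both protein-coding genes and all features by limma. At an unadjusted p under 0.05 2 members differed, beside 280 of the 5517 protein-coding genes. Voom called 0 members and 0.0% of protein-coding genes higher. The difference, upf1 minus WT, was 1.87 ± 0.452 for PGM2 (limma adjusted p = 0.271), 1.20 ± 0.571 for DDR2, 1.13 ± 0.410 for XBP1, 1.07 ± 0.481 for MSN2, 1.02 ± 0.458 for HSP104 and 0.98 ± 0.445 for HSP82. At the other end it was -1.05 ± 0.621 for HSP31 and -1.32 ± 0.736 for ALD3. With 2 libraries a group, the 95% intervals of these differences are wide. That of PGM2 runs from 0.81 to 2.92 before any adjustment, and that of HOR7, at 0.19 ± 0.306, from -0.52 to 0.90.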

How the data were processed

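Terminator-digested total RNA of 8 libraries was analysed, 2 biological replicates in each of 4 groups. The authors deposited normalized signal densities per feature and library, with no stated lengths or library factors. The submitters' processing notes list featureCounts 2.0.0, HISAT2 2.2.0, Trim Galore, DESeq2 and the R64 build, with no role or order. Every positive density came out as whole reads times a library factor over a whole length (100% within 0.001 reads), which gave the read totals. The factors were kept, so values depend on the authors' scaling.

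Densities times 1000 were put on a log2 scale with a pseudocount of 2. Features whose mean over the 8 libraries fell under 2 scaled reads per kb were dropped, which left 10392, of which 5517 were protein-coding. Limma 3.58.1 (R 4.3.3) fitted 4 group means with a mean-variance trend, with 4 residual and 3.60 prior degrees of freedom, and p-values were Benjamini-Hochberg adjusted over all features tested. Read ratios have exact 95% intervals that cover counting error only. Alternatives were other pseudocounts, filters and scalings, voom on the recovered reads, the replicate number as a block, and each library left out.

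Shown in every library were the members named in the rule that chose the set, MSN2, MSN4, HSP82 and, per comparison, the called members among the 5 of largest change. HSC82, the near copy of HSP82, and NAM7 were added to them. From each further list HSF1 and up to 4 called genes of smallest p were named. The members and lists were chosen with earlier results of these data known. CUP1-1 and HSP32 of the chaperone list were not matched and were not analysed here.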

Additional observations from a re-analysis of the deposited data

Results flagged for a closer look

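PGM2 had changes of opposite sign without UPF1 in the 2 treatments, neither of which passed. In CHX both upf1 libraries were above both WT libraries, at a log2 change of 1.63 ± 0.320 (limma adjusted p = 0.113), and in DMSO both were below them, at -0.23 ± 0.320 (adjusted p = 0.647). The DMSO change rests on 24 reads in upf1 and 21 in WT. Their ratio was 0.83, with an exact 95% interval for counting error of 0.45 to 1.58. The interaction, 1.87 ± 0.452, did not pass after adjustment (limma adjusted p = 0.271).

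HSP82 had changes of opposite sign on CHX in the 2 genotypes, neither of which passed. Both CHX libraries were above both DMSO libraries in upf1, at 0.39 ± 0.315 (0.385 before rounding; limma adjusted p = 0.291), and below them in WT, at -0.60 ± 0.315 (adjusted p = 0.12). The opposite signs depend on the scaling: with protein-coding median scaling the HSP82 change was -0.98 in upf1 and -1.91 in WT. The interaction was 0.98 ± 0.445 (limma adjusted p = 0.57). Each group holds 2 libraries, and how often such a pattern of signs arises among other genes was not counted. No cause was tested for either gene.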

How the results depend on the processing

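The counts of members called in the CHX comparisons changed with scaling. With protein-coding median scaling 3 were higher and 2 lower on CHX in upf1, and 1 higher and 4 lower in WT; with quantile normalization 4 and 2 in upf1, and 1 and 6 in WT. Between upf1 and WT in DMSO both scalings left 0, and 4 times the pseudocount left 3. Between upf1 and WT in CHX, 4 times the pseudocount gave 3 and voom 8. The other pseudocount and filters moved no count of members by over 1.5 times. Shares of protein-coding genes called with quantile normalization or 4 times the pseudocount were not counted, so those member counts have no background beside them.

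Median scaling gave 13 of the members with a positive change on CHX a negative one in upf1 and 11 in WT, and quantile normalization 9 and 13. Of changes called in at least 1 of the settings compared, median scaling turned in WT SSA1 (-0.80), SSA2 (-1.12), GRX1 (-0.21), TRX2 (-0.27), SOD2 (-0.29), PGM2 (-0.31), SSB1 (-0.087), SSB2 (-0.057), ZUO1 (-0.031) and HSP150 (-0.035). In upf1 it turned SSA1 (-1.29), SSA3 (-0.11), SSA4 (-0.016), GRX1 (-0.11), TRX2 (-0.45), SOD2 (-0.50), TFS1 (-0.047), GAC1 (-0.017), SSB1 (-0.51), SSB2 (-0.50), ZUO1 (-0.37) and HSP150 (-0.10). Quantile normalization turned SSA1 (-0.72), SSA2 (-0.82), SSA4 (-0.078), GRX1 (-0.35), TRX2 (-0.013), SOD2 (-0.15), XBP1 (-0.23), MSN2 (-1.19), PGM2 (-0.56) and HSF1 (-0.22) in WT, and SSA1 (-1.03), GRX1 (-0.034), SOD2 (-0.15), GAC1 (-0.13) and SSB1 (-0.037) in upf1. The other members that median scaling turned, uncalled in both settings, were ALD3, HSP104, HSP42, HSP78 and HSP82 in upf1 and STF2, GAC1, SSA3, MSN2 and HSP42 in WT. Between upf1 and WT it turned 16 members in CHX and 11 in DMSO. By construction both settings take the shared upward shift off.

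With single libraries left out, the members higher on CHX numbered 12 to 25 in upf1 and 15 to 24 in WT, where 0 to 1 were lower, and those higher in upf1 in DMSO 0 to 3. In upf1 17 rises were left without upf1 DMSO replicate 2. The lone library of a group is then assumed to vary like the others.

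The replicate numbers do not pair the libraries: correlations of same-numbered deviations ran from -0.04 to 0.12. With the replicate block 25 members were higher on CHX in upf1, 23 in WT, and 6 in upf1 against WT in DMSO, where GRX1 lost its call. WT DMSO held the fewest reads of HSP12 (2), GAC1 (3), SSA4 (4), ALD3 (7) and MSC1 (7), whose values depth limits most.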
